A study of Homo sapiens with 18 samples.

Results

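The human mitochondrial genome is a small circular DNA that encodes its own mRNAs, tRNAs and rRNAs. All genes whose chromosome was given as MT in the deposited count files were taken, and membership rested on the chromosome alone. The group itself was chosen with earlier results of these data known. These were 35 of 57500 genes, namely 13 mRNAs and 22 tRNAs. The rRNA genes were not analysed here. Counts came from poly-A selected RNA, taken after 72 h of puromycin selection, of ES8, an Ewing sarcoma line, and Rh30, an alveolar rhabdomyosarcoma line, with 9 libraries per line and 3 replicates (A, B and C) in each of 6 groups. In every group the cells carried dCas9-KRAB, a transcriptional repressor that is steered to a promoter by a guide RNA. Parental cells received a non-targeting guide (sgCTL) or a guide against DNAJC17, an essential J-domain co-chaperone linked to splicing (sgDNAJC17). The remaining group in each line, called ΔRRM, had the genotype 3xFLAG-DNAJC17-dRRM, a stably expressed DNAJC17 cDNA without its RNA recognition motif, and also received sgDNAJC17. No ΔRRM library with sgCTL was analysed here. The ΔRRM cDNA and the knockdown of the endogenous gene therefore cannot be told apart in that group. By the paper's methods, cells given the cDNA vector were also selected with hygromycin. No such step is stated for the parental cells. Hygromycin selection and the separate derivation of the ΔRRM cells thus cannot be told apart from the cDNA either, in any comparison with parental cells.

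Mitochondrial DNA is transcribed from both strands as long precursors by the RNA polymerase POLRMT with the help of TFAM. The tRNAs lie between most of the mRNAs and are cut out, which releases the mRNAs. Most of the mRNAs then gain short A tails that LRPPRC helps to maintain. Their products are core subunits of respiratory complexes I, III, IV and V, which are completed by many subunits that are encoded in the nucleus. Because mature tRNAs carry no poly-A tail, counts on tRNA genes in poly-A selected libraries can also come from uncut or tailed precursors, and these forms cannot be told apart in gene counts.

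Library totals ran from 35342393 to 48245989 counts. DNAJC17 itself stood at -2.84 (ES8) and -2.19 (Rh30) on the log2 fold scale with sgDNAJC17, and at 4.64 and 4.99 in the ΔRRM cells, where cDNA and endogenous reads are summed. All 5 markers listed for ES8 were lower and all 5 listed for Rh30 were higher in Rh30 than in ES8 controls. Replicate A of ES8 sgDNAJC17 stood apart from replicates B and C in several mitochondrial genes, and it is given separately where it matters. Cells were plated in triplicate and separate cultures are not stated, so p-values measure only the spread between these samples, which may be technical. A rise of mitochondrial RNA and a loss of nuclear RNA cannot be told apart in shares or in scaled counts.

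Of the 34 neighbouring pairs of the listed genes on the circle, 16 touched with no base between them and 5 overlapped. This layout limits the assignment of reads, and the deposited counts do not state how reads over 2 genes or either strand were treated. The longest overlap, 46 bases, was between MT-ATP8 and MT-ATP6, and MT-ND4L and MT-ND4 shared 7 bases. All 35 genes were matched by Ensembl identifier to GENCODE v44lift37 transcripts of the same length and had the start and end of the files (GRCh38). The junction of MT-TM, the methionine tRNA, with MT-ND2 at MT:4456-4483 (plus strand) is shown because the genes meet there without a spacer yet differed in their counts, with the MT-ND2 start codon in capitals.
MT-TM and MT-ND2: cccttcccgtactaATTaatcccctggc
Of the 13 mRNAs as annotated, 7 ended in a complete stop codon and 6 in T or TA alone, which the A tail completes. The last 18 annotated bases are shown for MT-CO2 (MT:8252-8269), MT-CO1 (MT:7428-7445), MT-ND1 (MT:4245-4262) and MT-CYB (MT:15870-15887), all on the plus strand. These mRNAs are named in the results below, and the letters of the stop are in capitals.
MT-CO2: cccgtatttaccctaTAG
MT-CO1: gtatacataaaatctAGA
MT-ND1: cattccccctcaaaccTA
MT-CYB: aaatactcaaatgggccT
The 9 genes on the minus strand were MT-ND6 and 8 tRNAs, which are released from the light-strand (L-strand) precursor. For the tRNAs that differed most in Rh30, the 17 bases of the anticodon arm are shown with the anticodon in capitals, for MT-TN (MT:5687-5703), MT-TC (MT:5789-5805), MT-TY (MT:5853-5869) and MT-TP (MT:15983-15999) on the minus strand and MT-TM (MT:4425-4441) on the plus strand. They decode asparagine, cysteine, tyrosine, proline and methionine.
MT-TN: cttagctGTTaactaag
MT-TC: ttgaattGCAaattcga
MT-TY: ttggactGTAaatctaa
MT-TP: ttagcttTGGgtgctaa
MT-TM: tcgggccCATaccccga

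The first question was how much of each library the mitochondrial genome supplied. In ES8 sgCTL it took 1.13%, 1.13% and 1.10% of all counts. With sgDNAJC17 it took 1.48%, 1.73% and 1.60%, and in ES8 ΔRRM cells 1.18%, 1.16% and 1.06%. All knockdown libraries thus lay above all other ES8 libraries, while control and ΔRRM values overlapped. The share was 1.60% ± 0.129 (SD, n = 3) in the knockdown and 1.12% ± 0.0193 in the control, a ratio of 1.43. The exact permutation test gave p = 0.1, the lowest two-sided value 3 against 3 allow. In Rh30 it was 0.556%, 0.617% and 0.611% in sgCTL, 0.678%, 0.572% and 0.616% with sgDNAJC17, and 0.441%, 0.439% and 0.486% in ΔRRM cells. Control and knockdown libraries overlapped (ratio 1.05, exact permutation p = 0.5), and all ΔRRM libraries lay below them (ratio to control 0.765, exact permutation p = 0.1). Taken over both lines with labels exchanged within lines (400 splits), the knockdown mean was 0.256 percentage points higher (exact permutation p = 0.025, two-sided, and 0.133 after Benjamini-Hochberg adjustment over 8 comparisons of the share). That pooled difference was made up of 0.485 points in ES8 and 0.0273 in Rh30.

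**Figure D1:**
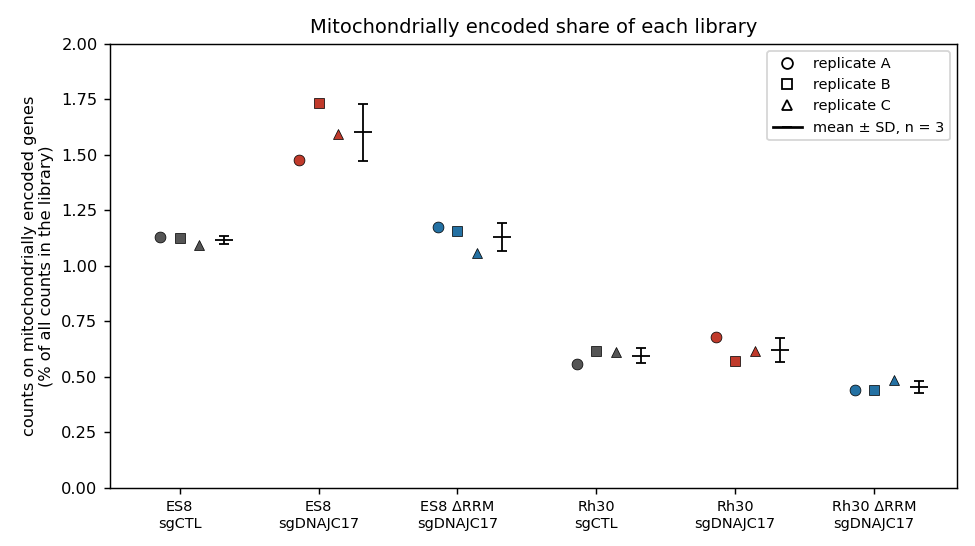
Counts on the 35 mitochondrially encoded genes as a percentage of all counts (y axis) in each library of the 6 groups (x axis). Symbols mark replicates A, B and C, and bars give the mean ± SD of 3 libraries. The ES8 sgDNAJC17 libraries sit at 1.48% to 1.73%, above all others, and the Rh30 ΔRRM libraries at 0.439% to 0.486%, below all others.

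In ES8 the rise in the knockdown covered mRNAs of all 4 respiratory complexes that the mitochondrial genome serves. Levels are in CPM, which puts libraries on 1 scale by edgeR's TMM method. Genes were tested by quasi-likelihood in edgeR, and p was adjusted over all genes tested after Benjamini and Hochberg. MT-CO2, a catalytic subunit of cytochrome c oxidase (complex IV), measured 1182, 1195 and 1151 CPM in sgCTL and 1963, 1970 and 1829 CPM with sgDNAJC17. All 3 knockdown libraries were above all 3 controls, a log2 fold change of 0.72 ± 0.051 (SE, edgeR adjusted p = 8.35e-05). MT-CYB, the cytochrome b of complex III, measured 539, 546 and 504 CPM in sgCTL and 884, 900 and 812 CPM in the knockdown. Here too the groups were apart, and the log2 fold change of 0.72 ± 0.0589 (edgeR adjusted p = 0.000143) was close to that of MT-CO2. MT-CO1, the largest subunit of cytochrome c oxidase and the member with the most counts, rose less. It measured 2679, 2661 and 2556 CPM in sgCTL and 3560, 3698 and 3354 CPM in the knockdown, a log2 fold change of 0.44 ± 0.053 (edgeR adjusted p = 0.000592). The other called mRNAs lay between these values on the log2 fold scale. For complex I they were MT-ND1 (0.62), MT-ND2 (0.69), MT-ND3 (0.68), MT-ND4L (0.61), MT-ND4 (0.55) and MT-ND5 (0.55). The value of MT-ND3 came mainly from replicates B and C, with 128, 222 and 213 CPM in the knockdown against 121, 115 and 119 CPM in sgCTL. For complex V, the ATP synthase, MT-ATP6 rose by 0.60, and for complex IV MT-CO3 rose by 0.54.

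Among the 26 mitochondrial genes tested in ES8, 18 were called up and 0 down at an adjusted p under 0.05, while 27.4% of 17143 genes were called, 13.6% up and 13.8% down. Of the mRNAs 11 of 13 were called. MT-TM alone passed a fold change of at least 2 in addition, where 1.95% of all genes did. The median log2 fold change was 0.58 over the mitochondrial genes tested and -0.02 over all genes. MT-ATP8, a small ATP synthase subunit, measured 178, 125 and 160 CPM in sgCTL and 61.7, 327 and 289 CPM in the knockdown. Replicate A was thus below every control and replicates B and C were above, and the log2 fold change of 0.57 ± 0.448 missed the threshold (edgeR adjusted p = 0.385). MT-ND6, the complex I subunit on the light-strand transcript, showed the same split, with 145, 241 and 216 CPM in the knockdown against 155, 142 and 149 CPM in sgCTL (log2 0.45 ± 0.150, edgeR adjusted p = 0.0506). Without replicate A of sgDNAJC17 all 18 calls held, and 45.3% of all genes were called. Leaving out any other library kept between 15 and 18 of the 18, while 14.3% to 21.4% of all genes were called. MT-ND3 lost its call without sgCTL replicate A (log2 0.70), B (0.66) or C (0.68) or without sgDNAJC17 replicate B (0.54). MT-TM lost its call without sgCTL replicate B (2.17) or C (1.76) or sgDNAJC17 replicate B (2.497), and MT-TP without sgCTL replicate A (0.52) or C (0.44) or sgDNAJC17 replicate B (0.46).

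**Figure D2:**
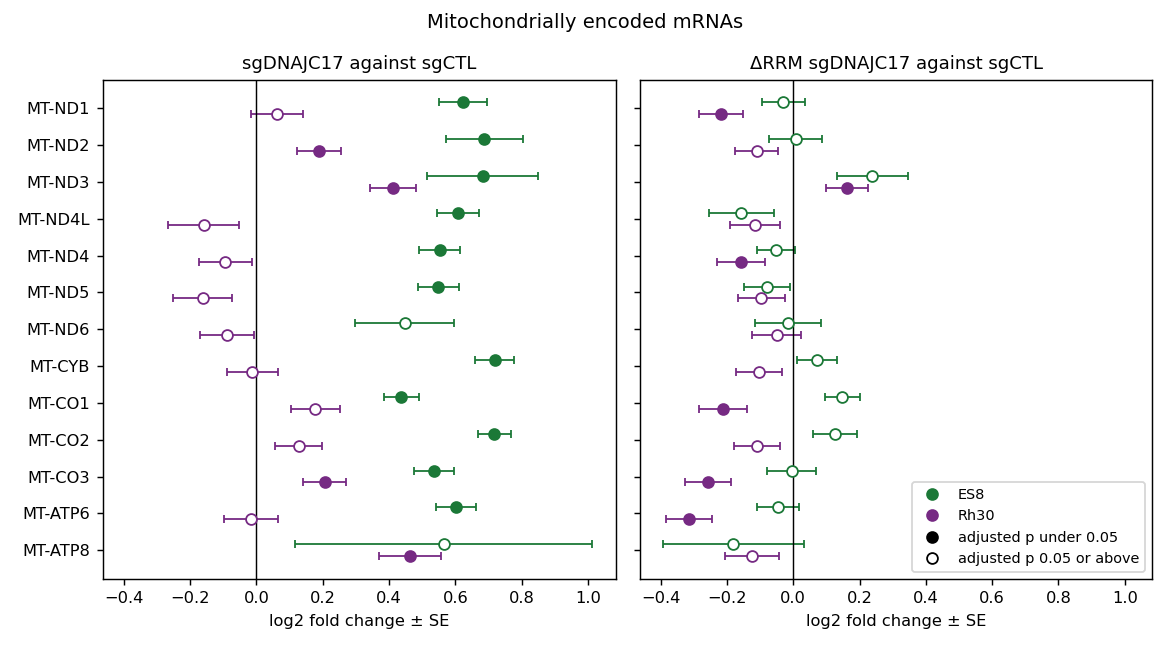
Log2 fold change ± SE (x axis) of the 13 mitochondrial mRNAs (y axis) with sgDNAJC17 against sgCTL in parental cells (left) and in ΔRRM cells with sgDNAJC17 against parental sgCTL (right). Filled points passed an adjusted p of 0.05. In the left panel the ES8 values lie between 0.44 and 0.72 and the Rh30 values between -0.16 and 0.46, and in the right panel no ES8 point is filled.

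The tRNA genes had far fewer counts than the mRNAs, which ranged from 1092 to 147203 counts in a library. A total of 9 tRNAs (MT-TI, MT-TW, MT-TA, MT-TD, MT-TK, MT-TG, MT-TR, MT-TS2 and MT-TT) passed the filter on low counts in none of the 7 pairwise comparisons and had at most 17 counts in any library, so no change in them was detectable at this depth. Another 4 (MT-TQ, MT-TM, MT-TS1 and MT-TE) were tested in some comparisons and 22 members in all 7. In the ES8 knockdown, 7 of 13 tRNAs tested were called, all up and MT-TM among them, where 13.6% of all genes were called up. MT-TF, which carries phenylalanine and opens the heavy-strand precursor, measured 3.45, 4.57 and 3.59 CPM in sgCTL and 6.76, 7.08 and 7.04 CPM in the knockdown (log2 0.86 ± 0.126, edgeR adjusted p = 0.00131). The groups did not overlap for this tRNA. MT-TV, for valine, had a log2 fold change of 0.92, MT-TC of 0.79, MT-TY of 0.72, MT-TL1 of 0.57 and MT-TP of 0.52. MT-TM had only 7, 2 and 0 counts in sgCTL and 19, 10 and 10 in the knockdown, and it passed the filter only through the group where it was higher. MT-TN had 1484, 1419 and 1461 counts in sgCTL and 800, 1798 and 2110 in the knockdown. As with MT-ATP8, replicate A of the knockdown lay below the controls and the others above them, and MT-TN was not called (log2 0.37 ± 0.240, edgeR adjusted p = 0.288). Within the mitochondrial counts the tRNA share was 0.654% ± 0.120 in the knockdown and 0.673% ± 0.0250 in sgCTL, with overlapping groups (exact permutation p = 0.9).

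Fewer mitochondrial genes passed the test in the Rh30 knockdown. At an adjusted p under 0.05, 9 of 23 mitochondrial genes tested were up and 0 down, against 32.3% of 15391 genes called, 16.1% up and 16.2% down. With a fold change of at least 2 in addition, 1.55% of all genes and no mitochondrial gene remained. The median log2 fold change was 0.19 over the mitochondrial genes and 0.00 over all genes. MT-ND3, a complex I subunit, measured 145, 171 and 152 CPM in sgCTL and 202, 213 and 201 CPM in the knockdown. Its groups were apart, with a log2 fold change of 0.41 ± 0.069 (edgeR adjusted p = 0.000735). MT-ATP8 measured 38.8, 48.7 and 39.8 CPM in sgCTL and 63.9, 51.6 and 58.1 CPM in the knockdown, also without overlap (log2 0.46 ± 0.0931, edgeR adjusted p = 0.00224). The tRNAs MT-TN (log2 0.55 ± 0.0995, edgeR adjusted p = 0.00118) and MT-TP (log2 0.48 ± 0.0734, edgeR adjusted p = 0.000409) were also higher. These 4 genes kept their calls without any 1 library. MT-CO3 (log2 0.21), MT-ND2 (0.19), MT-TF (0.79), MT-TL1 (0.38) and MT-TM (0.85) were called as well but depended on single libraries. Fits without 1 library called 19.4% to 41.4% of all genes. All 5 lost their calls without sgDNAJC17 replicate B, where MT-TF stood at 0.64 and MT-CO3 at 0.23 and 19.4% of all genes were called. MT-TL1 also lost its call without sgCTL replicate A (0.33) or B (0.35), and MT-CO3 without sgCTL replicate A (0.16) or C (0.20). MT-ND2 kept its call only without sgDNAJC17 replicate A and MT-TM only without sgDNAJC17 replicate C, and otherwise they ranged from 0.13 to 0.23 and from 0.61 to 0.92. MT-CYB, which rose in ES8, measured 350, 392 and 394 CPM in sgCTL and 416, 335 and 362 CPM in the Rh30 knockdown. The groups overlapped, and the log2 fold change was -0.01 ± 0.0767 (edgeR adjusted p = 0.921).

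Same-lettered Rh30 libraries shared deviations in this comparison, so it was also fitted with the letter as a replicate block. In that paired fit 14 of 23 mitochondrial genes were called, 12 up and 2 down, while the share of all genes called went from 32.3% to 47%. The added calls were MT-CO1 (log2 0.18), MT-CO2 (0.13) and MT-TC (0.34) upwards and MT-ND5 (-0.17) and MT-ND4L (-0.16) downwards. Both genes that were lower encode complex I subunits, as do MT-ND3 and MT-ND2, which were higher.

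Whether the knockdown acted differently in the lines was tested with an interaction term. It was below 0, meaning a lower log2 fold change in Rh30 than in ES8, at an adjusted p under 0.05 for 9 of the 26 mitochondrial genes tested and above 0 for none, while 9.78% of 18899 genes passed, 4.55% below 0 and 5.23% above. None of the 9 differed by a fold of at least 2, as 1.26% of all genes did. All 9 were mRNAs. The difference in log2 fold change between Rh30 and ES8 was -0.71 ± 0.109 for MT-CYB (edgeR adjusted p = 0.000594) and -0.69 ± 0.120 for MT-ND5 (edgeR adjusted p = 0.00154). It was -0.74 for MT-ND4L, -0.62 for MT-ND4, -0.59 for MT-ATP6, -0.57 for MT-CO2, -0.54 for MT-ND1, -0.47 for MT-ND2 and -0.30 for MT-CO3. Of these, 7 passed without any 1 library, in fits that called 5.22% to 13% of all genes, and MT-ND2 and MT-CO3 did not. Without sgCTL replicate B of Rh30, for example, MT-ND2 stood at -0.43 and MT-CO3 at -0.25, and without sgDNAJC17 replicate B of ES8 they stood at -0.37 and -0.27. No tRNA passed this test, and for MT-TP the difference was -0.01 ± 0.144. DNAJC17 itself fell less in Rh30 than in ES8 by the same test (0.68 ± 0.179, edgeR adjusted p = 0.0199). Line and depth of knockdown therefore cannot be told apart here.

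The ΔRRM cells were compared with the same sgCTL and sgDNAJC17 libraries, so these comparisons share samples and are not independent of those above. In ES8, no mitochondrial gene of 24 tested differed between ΔRRM and sgCTL by edgeR or by DESeq2 at an adjusted p under 0.05, where 0.174% of 17199 genes did by edgeR, 0.093% upwards and 0.0814% downwards, and 0.0349% with a fold change of at least 2. These 30 genes became 134 by DESeq2, 102 with the replicate block, 2 to 5 without any 1 sgCTL library, 460 without ΔRRM replicate A, 150 without ΔRRM replicate B and 13 without ΔRRM replicate C. At an unadjusted p under 0.05 the count was 4 by each tool, where edgeR had 13.4% of all genes. MT-CO2 measured 1205, 1424 and 1204 CPM, above all 3 controls but far below the knockdown libraries, with a log2 fold change of 0.13 ± 0.0666 to sgCTL (edgeR adjusted p = 0.422). MT-CYB measured 546, 585 and 530 CPM, which overlapped the controls (log2 0.07 ± 0.0597, edgeR adjusted p = 0.606). Against the knockdown, 15 of 25 mitochondrial genes tested were lower in ΔRRM cells and none higher, while 14.7% of 17099 genes differed, 7.36% lower and 7.35% higher. MT-TV and MT-TM differed by a fold of at least 2, as 1.97% of all genes did, but MT-TM had only 2, 2 and 6 counts in ΔRRM cells and passed the filter through the knockdown group alone. The log2 differences to the knockdown among called mRNAs ran from -0.76 for MT-ND4L to -0.28 for MT-CO1. MT-CYB stood at -0.64 ± 0.0827 (edgeR adjusted p = 0.00104), MT-ATP6 at -0.64, MT-CO2 at -0.59 and MT-CO3 at -0.54. Among tRNAs MT-TV (-1.22), MT-TF (-0.998) and MT-TL1 (-0.82) were lower. Calls of MT-CO1, MT-TM and MT-TY depended on single libraries, in fits that called 6.1% to 19.2% of all genes. MT-CO1 stood at -0.26 without sgDNAJC17 replicate B or ΔRRM replicate C, at -0.32 without sgDNAJC17 replicate C and at -0.30 without ΔRRM replicate A, each time with an adjusted p above 0.05. MT-TY lost its call without any library other than sgDNAJC17 replicate A, at -0.57 to -0.59, and MT-TM without sgDNAJC17 replicate A (-1.69) or B (-2.28) or ΔRRM replicate A (-1.87) or B (-1.84).

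In Rh30 ΔRRM cells 4 light-strand tRNAs were higher than in sgCTL, in a comparison that called 68.8% of all genes, 33.8% up. Of the 13 mRNAs 5 were lower and 1 was higher, a share of lower calls near the 35% of all genes. MT-TN measured 36.7, 42.5 and 40.5 CPM in sgCTL, 47.9, 64.4 and 61.1 CPM with sgDNAJC17 and 99.7, 113 and 116 CPM in ΔRRM cells. No ΔRRM library overlapped any other Rh30 library, and the log2 fold change to sgCTL was 1.51 ± 0.0685 (edgeR adjusted p = 3.43e-27). MT-TC measured 6.63, 7.40 and 6.68 CPM in sgCTL, 6.67, 10.2 and 9.38 CPM in the knockdown and 17.25, 16.95 and 20.34 CPM in ΔRRM cells. Its log2 fold change to sgCTL was 1.45 ± 0.0962 (edgeR adjusted p = 2e-20), again with no overlap. MT-TY, a neighbour of MT-TC on this strand, rose from a low level, with 27, 31 and 31 counts in sgCTL and 57, 42 and 46 in ΔRRM cells (log2 1.03 ± 0.270, edgeR adjusted p = 0.000636). MT-TP, which opens the light-strand precursor, measured 18.2, 19.7 and 20.6 CPM in sgCTL and 30.05, 29.62 and 31.40 CPM in ΔRRM cells (log2 0.69 ± 0.076, edgeR adjusted p = 3.45e-12). These are all 4 of the light-strand tRNAs that could be tested in Rh30, and the 4 with lower counts could not be. MT-ND6, the mRNA of the same strand, was not called. It measured 49.2, 57.5 and 54.4 CPM in sgCTL and 41.7, 53.2 and 55.1 CPM in ΔRRM cells (log2 -0.05 ± 0.0745, edgeR adjusted p = 0.563).

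On the heavy strand MT-TM was lower at very low counts. It had 32, 28 and 31 counts in sgCTL, 74, 54 and 27 in the knockdown and 11, 6 and 3 in ΔRRM cells, so that the ΔRRM libraries were below every other Rh30 library. It passed the filter on low counts only through the sgCTL group, where it was higher, and its fold changes are given with that limit. The log2 fold change to sgCTL was -1.86 ± 0.421 (edgeR adjusted p = 9.43e-05), while MT-ND2, which starts at the next base, stood at -0.11 ± 0.0649 (edgeR adjusted p = 0.126). MT-TF was higher at 0.66 ± 0.234 (edgeR adjusted p = 0.0103). In all, 6 mitochondrial genes of 23 were up and 6 down, against 68.8% of 15442 genes called, 33.8% up and 35% down. With a fold change of at least 2 in addition, MT-TN, MT-TC, MT-TY and MT-TM remained, where 9.97% of all genes did. Among mRNAs MT-ATP6 fell by 0.32 on the log2 scale, MT-CO3 by 0.26, MT-ND1 by 0.22, MT-CO1 by 0.21 and MT-ND4 by 0.16, and MT-ND3 was higher at 0.16. Of these mRNAs, MT-ATP6 and MT-CO3 kept their calls without any 1 library. The other calls were lost in some cases. MT-ND4 stood at -0.06 without ΔRRM replicate A, at -0.12 without ΔRRM replicate B or sgCTL replicate C and at -0.15 without sgCTL replicate B. MT-CO1 stood at -0.16 without ΔRRM replicate B, -0.19 without sgCTL replicate B and -0.17 without sgCTL replicate C. MT-ND1 stood at -0.15 without ΔRRM replicate A and -0.16 without sgCTL replicate B, and MT-ND3 at 0.10 without sgCTL replicate A and 0.14 without sgCTL replicate C. Library totals in place of TMM shifted the median of all genes by -0.23 in this comparison. On that scale 4 mitochondrial genes were up and 13 down, and MT-ND3 stood at -0.07, while MT-TN, MT-TC, MT-TY and MT-TP had log2 fold changes above 0 on both scales.

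**Figure D3:**
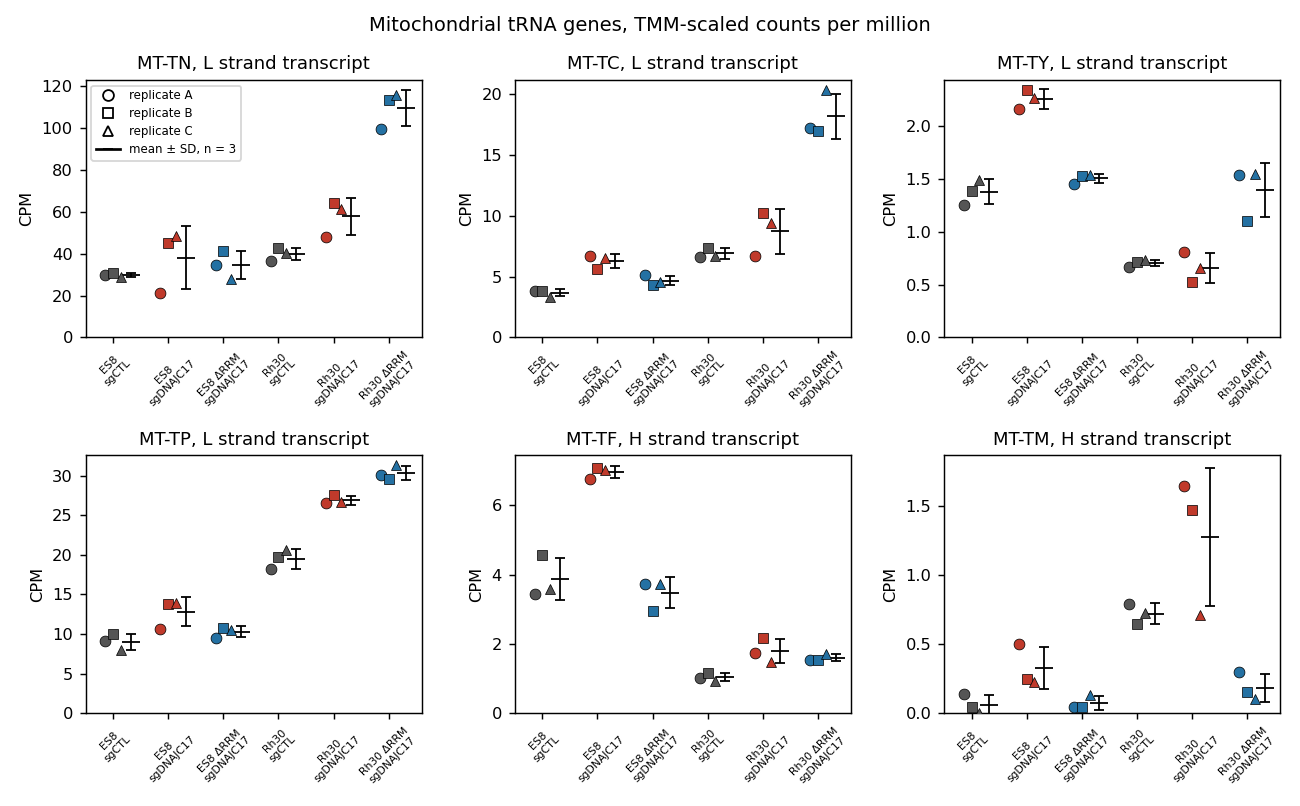
TMM-scaled CPM (y axes, each from 0) of 6 mitochondrial tRNA genes in the libraries of the 6 groups (x axes). Symbols mark replicates A, B and C and bars the mean ± SD of 3 libraries. MT-TN, MT-TC and MT-TP are highest in the Rh30 ΔRRM libraries, where MT-TM is below all other Rh30 libraries.

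A measure inside the mitochondrial counts does not depend on the scaling against nuclear genes. The 8 light-strand tRNAs took 1.09%, 1.08% and 1.06% of mitochondrial counts in Rh30 sgCTL, 1.13%, 1.64% and 1.49% in the knockdown and 2.81%, 3.13% and 2.93% in ΔRRM cells. All 3 groups were apart, and the ΔRRM mean was 2.74 times that of sgCTL (exact permutation p = 0.1, and 0.158 after adjustment over 63 comparisons of composition). Most of this share was MT-TN, at 0.640%, 0.845% and 2.03% in the 3 groups. With MT-ND6 included, all light-strand genes took 1.94% in sgCTL, 2.16% in the knockdown and 3.88% in ΔRRM cells. On that measure knockdown and sgCTL overlapped (ratio 1.115, exact permutation p = 0.4), while ΔRRM cells stayed apart from sgCTL (ratio 2.00, exact permutation p = 0.1). The 14 heavy-strand tRNAs took 0.125% ± 0.00586 in sgCTL, 0.162% ± 0.0184 in the knockdown and 0.147% ± 0.0233 in ΔRRM cells. The knockdown was above sgCTL without overlap, by a ratio of 1.29 against 1.32 for the light-strand tRNAs (exact permutation p = 0.1 each), and ΔRRM cells overlapped sgCTL (exact permutation p = 0.2). In ES8 the light-strand tRNAs took 0.449% ± 0.0119 in sgCTL, 0.413% ± 0.107 in the knockdown and 0.507% ± 0.0369 in ΔRRM cells. The ES8 ΔRRM libraries were above sgCTL without overlap, by a ratio of 1.13, and the heavy-strand tRNAs were below it, at 0.188% ± 0.0139 against 0.224% ± 0.0138 (exact permutation p = 0.1 each). The interaction term set the ΔRRM effects of the lines against each other and was higher in Rh30 for MT-TN (1.30 ± 0.138, edgeR adjusted p = 1.66e-07), MT-TC (1.10), MT-TY (0.90), MT-TF (0.81) and MT-TP (0.50) and lower for MT-CO1 (-0.36). These were 6 of the 25 genes tested, where 41.4% of 18854 genes were called, 19.9% higher and 21.5% lower. MT-TN and MT-TC differed by a fold of at least 2, as 6.66% of all genes did. Library totals gave 10 calls here, 2 higher and 8 lower, with 43.5% of all genes called. Without ΔRRM replicate C of Rh30 there were also 10, with 38% of all genes called. Counts on short nuclear genes, those with at most 300 bases of exon, moved with the tRNAs in Rh30. They took 0.0292% to 0.0320% of all counts in sgCTL, 0.0324% to 0.0371% in the knockdown and 0.0474% to 0.0514% in ΔRRM cells. In ES8 they took 0.0346% to 0.0354% in sgCTL, 0.0354% to 0.0409% in the knockdown and 0.0338% to 0.0370% in ΔRRM cells. The knockdown mean was thus higher without overlap in both lines, at 1.09 times that of sgCTL in ES8 and 1.16 times in Rh30. Over both lines the exact permutation test gave p = 0.005 (two-sided, 400 splits, not adjusted), the lowest value it allows. In ES8 the gap was narrow, from 0.03536% in the highest sgCTL library to 0.03545% in the lowest knockdown library. The part of short transcripts as a class in the tRNA values was not tested.

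**Figure D4:**
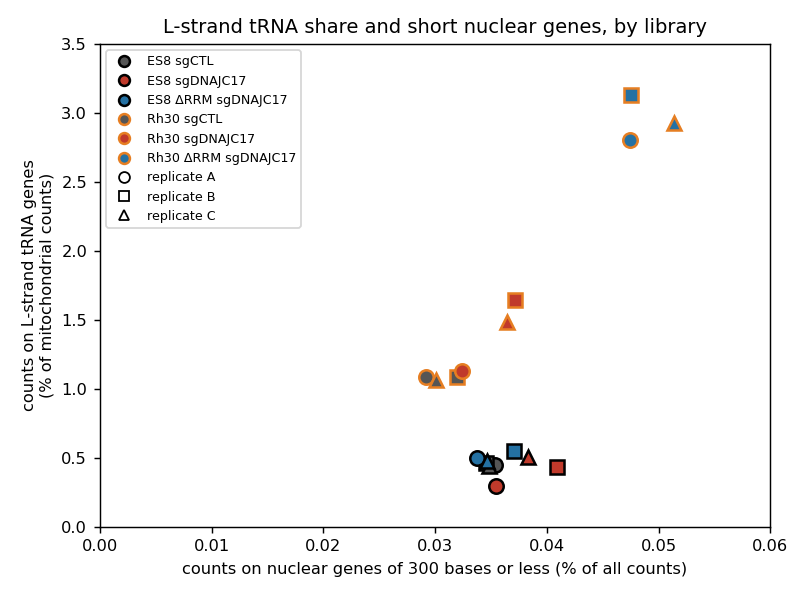
Counts on the 8 light-strand tRNA genes as a percentage of mitochondrial counts (y axis) against counts on nuclear genes of at most 300 bases as a percentage of all counts (x axis), 1 point per library. Black outlines are ES8 and orange outlines Rh30, with grey fill for sgCTL, red for sgDNAJC17 and blue for ΔRRM sgDNAJC17. The 3 Rh30 ΔRRM libraries lie apart from the others on both axes, at 2.81% to 3.13% and 0.0474% to 0.0514%.

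Compared with the Rh30 knockdown, 10 mitochondrial genes of 23 were lower in ΔRRM cells and 4 higher, while 60% of 15309 genes differed, 30.5% lower and 29.4% higher. A fold of at least 2 was reached by MT-TM, MT-TC and MT-TY, and by 7.79% of all genes. MT-CO3 measured 1124, 1047 and 1056 CPM in the knockdown and 812, 709 and 756 CPM in ΔRRM cells, with all ΔRRM libraries lower (log2 -0.48 ± 0.0814, edgeR adjusted p = 3.94e-07). MT-ATP8 stood at -0.60, MT-CO1 at -0.40, MT-ND2 and MT-ATP6 at -0.31, MT-ND1 at -0.29, MT-ND3 at -0.26 and MT-CO2 at -0.25. MT-CO2 stood at -0.17 and was not called without ΔRRM replicate B. MT-TC (1.09), MT-TY (1.08), MT-TN (0.95) and MT-TP (0.20) were higher and MT-TV (-0.79) and MT-TM (-2.71) lower, the latter having passed the filter only through the knockdown group. MT-TP lost its call without any library other than ΔRRM replicate B, at log2 values from 0.16 to 0.22. MT-TV lost its call without sgDNAJC17 replicate A (-0.56) or ΔRRM replicate C (-0.66). Library totals in place of TMM gave 3 genes up and 13 down, with a shift of -0.16 in the median of all genes.

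The lines also differed before any knockdown. In sgCTL cells 17 of 24 mitochondrial genes tested were lower in Rh30 than in ES8 and 5 higher, with 87.5% of 17925 genes called, 45.5% lower and 42% higher. For 13 mitochondrial genes the difference was at least 2-fold, as it was for 50.9% of all genes. These include MT-TQ (log2 -2.18), which passed the filter only through ES8. It had 29, 15 and 25 counts in ES8 and 6, 5 and 2 in Rh30. The groups hold different cell lines, so differences of origin, culture and library cannot be told apart. MT-ND4, a proton-pumping subunit of complex I, measured 1218, 1233 and 1155 CPM in ES8 and 404, 442 and 457 CPM in Rh30 (log2 -1.49 ± 0.0488, edgeR adjusted p = 1.11e-28). All Rh30 libraries were below all ES8 libraries. MT-ATP8 had a log2 difference of -1.88, MT-ND6 of -1.48 and MT-ND4L of -1.34, whereas MT-CO1 differed by only -0.25 ± 0.0484 (edgeR adjusted p = 1.08e-05). MT-ND3 was the mRNA that was higher in Rh30, with 121, 115 and 119 CPM in ES8 and 145, 171 and 152 CPM in Rh30 (log2 0.39 ± 0.0519, edgeR adjusted p = 7.33e-09). The tRNAs MT-TP (1.10), MT-TC (0.90) and MT-TN (0.40) were higher in Rh30, as was MT-TM (3.48), which passed the filter only through Rh30, and MT-TF (-1.90), MT-TL1 (-1.73) and MT-TV (-1.61) lower. All 22 calls held without any 1 library.

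Complex I mRNAs took 32.7% ± 0.108 of mitochondrial counts in ES8 sgCTL and 23.4% ± 0.357 in Rh30 sgCTL, and complex IV mRNAs took 51.1% ± 0.160 and 62.2% ± 0.218. Neither pair of groups overlapped (exact permutation p = 0.1 each). MT-CO1 alone took 26.3% ± 0.118 in ES8 and 35.9% ± 0.498 in Rh30. Per length, the order of mean levels in ES8 sgCTL was MT-CO2 (1720 CPM per kilobase), MT-CO1 (1707) and MT-CO3 (1662), whose ranges over libraries overlapped, then MT-ND4L (1345) and MT-ATP6 (1270), MT-ND4 (872), MT-ATP8 (745) and MT-CYB (464). MT-ND2 (396), MT-ND1 (380), MT-ND5 (344), MT-ND3 (341) and MT-ND6 (283) followed. Of these neighbours, MT-ND4L with MT-ATP6, MT-ND4 with MT-ATP8 and MT-ND5 with MT-ND3 touched or overlapped over libraries. In Rh30 sgCTL the order began with MT-CO1 (1453), MT-CO3 (1203), MT-CO2 (1016) and MT-ATP6 (593) and, among mRNAs, ended with MT-ND5 (146) and MT-ND6 (102). MT-TN reached 547 CPM per kilobase in Rh30 sgCTL and 1501 in Rh30 ΔRRM cells, where its mean was above that of MT-CO1 (1208), though 73 bases are a short length to scale by.

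**Figure D5:**
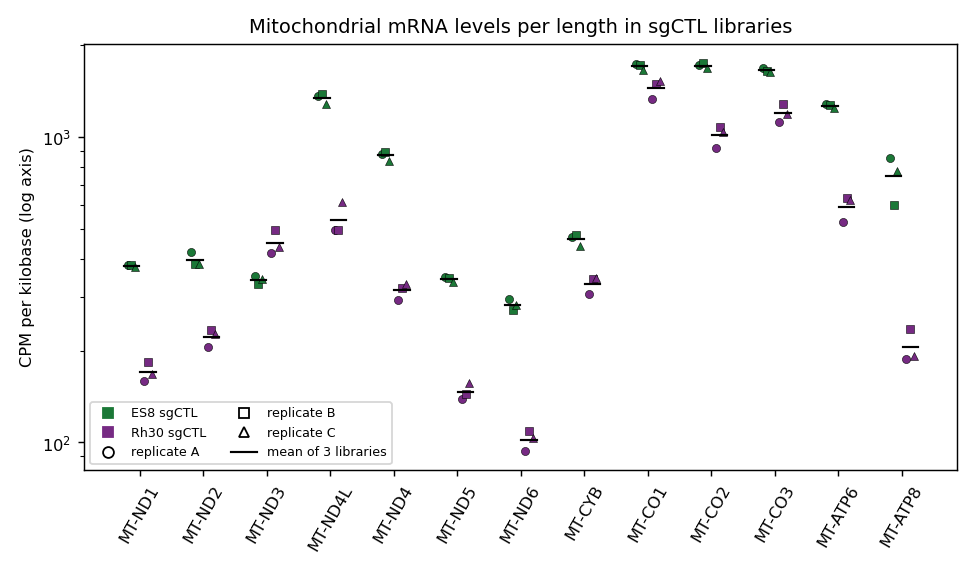
Levels of the 13 mitochondrial mRNAs in CPM per kilobase of exon (y axis, log scale) in the sgCTL libraries of ES8 and Rh30. Symbols mark replicates A, B and C and lines the mean of 3 libraries. Rh30 is lower for all but MT-ND3, and among those the ratio is nearest to 1 for MT-CO1 (1707 and 1453) and farthest from it for MT-ATP8 (745 and 205).

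Nuclear genes that transcribe and maintain mitochondrial DNA were followed as a list of 15, all tested. In the ES8 knockdown 1 was up and 1 down, and in Rh30 6 were up and 2 down, at an adjusted p under 0.05, where 27.4% and 32.3% of all genes were called. The median log2 fold change of the list was -0.05 in ES8 and 0.02 in Rh30, and that of all genes -0.02 and 0.00. POLRMT, the mitochondrial RNA polymerase, was lower in both lines (log2 -0.29 ± 0.0756 in ES8, edgeR adjusted p = 0.019, and -0.39 ± 0.0763 in Rh30, edgeR adjusted p = 0.00202). TWNK, the helicase of mitochondrial DNA replication, was higher in both (0.64 in ES8 and 0.40 in Rh30). TFAM, which packages mitochondrial DNA and starts its transcription, was higher in Rh30 (0.46 ± 0.0739, edgeR adjusted p = 0.000548) and stood at -0.04 ± 0.141 in ES8 (edgeR adjusted p = 0.857). The ES8 value hid a split by library, with 1511, 2281 and 2655 counts in the knockdown and 2805, 2260 and 2943 in sgCTL, and without sgDNAJC17 replicate A it was 0.12 and passed the threshold (edgeR adjusted p = 0.0453). In Rh30 ΔRRM cells against sgCTL, POLRMT stood at -0.70 and TFAM at 0.81.

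Of 31 nuclear genes for mitochondrial RNA processing, stability and decay, 7 were up and 5 down in the ES8 knockdown and 13 up and 1 down in Rh30, with list medians of -0.04 and 0.19 on the log2 scale. Over all genes 13.6% were up and 13.8% down in ES8, and 16.1% and 16.2% in Rh30. The genes up in both lines were MRM2 and MRM3, which methylate mitochondrial rRNA, PDE12, which removes A tails, and HSD17B10, a subunit of the protein-only RNase P that cuts tRNA 5′ ends. Their log2 fold changes in ES8 were 0.29, 0.34, 0.33 and 0.27, and in Rh30 0.28, 0.32, 0.31 and 0.19. LRPPRC fell by 0.49 in ES8 (edgeR adjusted p = 0.00277) and stood at -0.13 ± 0.0573 in Rh30 (edgeR adjusted p = 0.0976), and the difference between the lines was 0.39 ± 0.102 (edgeR adjusted p = 0.0191).

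Nuclear-encoded respiratory chain subunits, the partners of the mitochondrial mRNAs' products, were followed as a list of 78. In the ES8 knockdown 37 were up and 3 down and in Rh30 36 were up and 5 down, with list medians of 0.20 and 0.21 on the log2 scale, against the same shares of all genes. Beside these, 11 of the 13 mitochondrial mRNAs were called up in the ES8 knockdown and 4 in that of Rh30. UQCR10, a small complex III subunit, stood at 0.37 (ES8) and 0.36 (Rh30), and NDUFS6, of complex I, at 0.30 and 0.38. In Rh30 ΔRRM cells against sgCTL 71 of the 78 were up and 5 down, 35 of them with a fold change of at least 2, and the list median was 0.95 on the log2 scale, while 33.8% of all genes were up and 35% down. UQCRQ, another complex III subunit, measured 213 ± 23.2 CPM (SD, n = 3) in sgCTL and 512 ± 51.4 in ΔRRM cells (log2 1.32, edgeR adjusted p = 6.12e-24). The mitochondrial mRNAs of that comparison had a median of -0.12. In ES8 ΔRRM cells against sgCTL 0 of the 78 were called, with a median of 0.14, where 0.174% of all genes were called. Against the ES8 knockdown 2 were up and 1 down in ΔRRM cells, with a median of -0.03. Of all genes 7.35% were up and 7.36% down there.

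Copies of mitochondrial genes in nuclear DNA can take reads from the originals. The handling of reads with several matches is not given in the sources used here. The 403 listed pseudogene copies together held 0.538% to 0.819% as many counts as the mitochondrial genes. The copy with the most counts, MTATP6P1 on chromosome 1, had 2926, 3008 and 2988 counts in ES8 sgCTL and 3870, 4074 and 3914 in the knockdown (log2 0.69, edgeR adjusted p = 0.000334), close to the 0.60 of MT-ATP6. In Rh30 its log2 fold change was 0.05 in the knockdown and -0.32 in ΔRRM cells, where MT-ATP6 stood at -0.02 and -0.32. Reads of MTATP6P1 and MT-ATP6 are therefore given as uncertain in their split, as are those of MTCO1P12 and MT-CO1.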

How the data were processed

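Reads per gene were deposited by the authors as raw counts, 1 file per library, and all values are whole numbers. The submitters' processing notes name Trimmomatic 0.36, STAR 2.5.2b, featureCounts and Subread 1.5.2 with GRCh38, whereas the study's methods name an older build. Positions of all 35 mitochondrial genes equalled those of RefSeq on GRCh38. The strand setting and the handling of reads with several matches are not given in the sources used here. Both decide how overlapping and duplicated genes share reads.

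Counts of all genes were filtered with filterByExpr, scaled by TMM and tested with edgeR 4.0.16 (quasi-likelihood, R 4.3.3), with Benjamini-Hochberg adjustment over all genes tested and calls at an adjusted p under 0.05. Each comparison used its own 6 libraries, and interaction terms used 12. Shares were tested by exact permutation of libraries (scipy 1.17.1). Replicates by letter correlated above 0.1 for every letter only in the Rh30 knockdown (0.576, 0.287 and 0.348). The fits were tested on simulated data. Named nuclear genes were POLRMT, TFAM, LRPPRC and, per list, up to 6 called in the same direction in both knockdowns. Named pseudogenes were the 3 with the most counts. The members and lists were chosen with earlier results of these data known. Alternatives were DESeq2 1.42.0, other scalings and filters, stricter calls, all 18 libraries in 1 fit, the replicate block and leaving out each library.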

Additional observations from a re-analysis of the deposited data

Results flagged for a closer look

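The change with sgDNAJC17 differed between the lines in 9 mitochondrial mRNAs, by a test of the difference itself (interaction term, edgeR adjusted p under 0.05), where 9.78% of all genes passed. The log2 fold change in Rh30 minus that in ES8 was -0.54 for MT-ND1, -0.47 for MT-ND2, -0.57 for MT-CO2, -0.59 for MT-ATP6, -0.30 for MT-CO3, -0.74 for MT-ND4L, -0.62 for MT-ND4, -0.69 for MT-ND5 and -0.71 for MT-CYB. All were higher with sgDNAJC17 than with sgCTL in ES8. DNAJC17 itself also passed the test, with a smaller fall in Rh30 (0.68), so line and depth of knockdown cannot be told apart. MT-ND2 and MT-CO3 lost this call when single libraries were left out, among them sgCTL replicate B and sgDNAJC17 replicate B of either line.

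The difference of ΔRRM cells from sgCTL also depended on the line, by the same test, in 5 tRNA genes and 1 mRNA. These were 6 of 25 tested, below the 41.4% of all genes that passed, and with library totals 2 mitochondrial genes were higher in Rh30 and 8 lower. The log2 fold change in Rh30 minus that in ES8 was 0.81 for MT-TF, 1.30 for MT-TN, 1.10 for MT-TC, 0.90 for MT-TY and 0.50 for MT-TP, and -0.36 for MT-CO1. Of these, MT-TN, MT-TC, MT-TY and MT-TP are on the light-strand transcript.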

How the results depend on the processing

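The number of mitochondrial genes called in the Rh30 knockdown depended most on the settings. It was 9, and it became 5 with library totals in place of TMM, 5 with all 18 libraries in 1 fit, 4 at an adjusted p under 0.01, 14 with the replicate block, and 4 to 12 without 1 library. The share of all genes called was 32.3%, against 32% with library totals, 20.9% with all 18 libraries and 47% with the block. Without 1 library it was 19.4% to 41.4%. For the ΔRRM by line interaction the count of 6 became 10 with library totals and 6 to 10 without 1 library. All genes were called there at 41.4%, at 43.5% with library totals and at 36.3% to 43.2% without 1 library. Requiring a fold change of at least 2 left 1 gene in the ES8 knockdown, 0 in the Rh30 knockdown, 4 in Rh30 ΔRRM against sgCTL, 2 in ES8 ΔRRM and 3 in Rh30 ΔRRM against knockdown, 13 between the lines, and 0 and 2 in the interactions of knockdown and ΔRRM with line. Other counts of calls in either direction stayed within 1.5 times under the alternatives run, the block included, but their split did not always: in Rh30 ΔRRM against sgCTL library totals turned 6 up and 6 down into 4 and 13. Direction turned for MT-ND3 in Rh30 ΔRRM against sgCTL with library totals (-0.0719) and for TFAM in the ES8 knockdown without sgDNAJC17 replicate A (0.12, within a range of -0.16 to 0.12 without 1 library). TFAM also stood just above 0 in ES8 without sgCTL replicate C (0.0059, edgeR adjusted p = 0.987). The block could not be read as a pairing outside the Rh30 knockdown. The alternative without the rRNA genes gave no value, since they were not analysed here. Shares kept their direction on protein-coding counts. The ratio to nuclear counts orders the libraries as the share does, so its direction was no separate check. With 3 libraries a group, exact tests of shares cannot go below p = 0.1.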
